A study of Sus scrofa with 6 samples.

Results

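Alpha-arrestins are adaptor proteins with an arrestin fold, and the transcripts of ARRDC3, ARRDC4 and ARRDC2 were followed here in pig back muscle. Of the 5 family members sought by symbol (ARRDC1, ARRDC2, ARRDC3, ARRDC4 and TXNIP), 3 had a row among the 25322 genes of the table. These were ARRDC2 (ENSSSCG00000013893), ARRDC3 (ENSSSCG00000014156) and ARRDC4 (ENSSSCG00000002252). TXNIP and ARRDC1 were not analysed here, because the Ensembl identifiers that carry those symbols matched no row. The family was chosen by the difference in its FPKM values between the low and high altitude groups, so its differences between the groups are given as a description, without a test.

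RNA was sequenced from longissimus dorsi, a muscle that runs along the spine, of 6 healthy female Tibetan pigs, with 1 library per animal. The low altitude group was 3 pigs from the Chengdu plain, where altitude averages 500 m, fed daily under experimental conditions, from a line that had lived in the lowland for generations. The high altitude group was 3 pigs ranging freely in the highland at an average of 4000 m. All were untreated animals of 1 breed and sex, and their age is not given in the sources used here. Altitude, feeding, housing and line history differed together between the groups and cannot be told apart.

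Alpha-arrestins carry short PPxY motifs near the carboxyl end, which bind the WW domains of NEDD4-family ubiquitin ligases. In this way they bring the ligases to membrane proteins such as receptors and transporters, which are then ubiquitinated and sorted. In human cells ARRDC3 is known to act on the beta-adrenergic receptor and ARRDC1 on the budding of vesicles from the cell surface. TXNIP and ARRDC4 lower glucose uptake, and their genes are targets of the glucose-sensing factor MondoA, encoded by MLXIP. TXNIP also binds thioredoxin, the small protein that keeps other proteins reduced.

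Levels are given as FPKM, fragment numbers corrected for transcript length and for how much of the library was mapped, so that genes can be compared within a library. The FPKM total was 506611 to 566907 in the low altitude libraries and 526368 to 571855 in the high altitude libraries. Absolute depth is unknown. The spacing of the lowest values gave relative depths of 0.875 to 0.991 at low altitude and 0.851 to 1.21 at high altitude, on a scale with a mean of 1. All 7 matched markers of skeletal muscle were above 0 in every library, with a summed FPKM of 28067 to 28857 at low and 25834 to 30104 at high altitude. High altitude library 1 stood apart. Its 6 fibroblast genes summed to 253 FPKM, against 701 to 1087 FPKM in the other libraries. Its 4 slow fibre genes summed to 10493 FPKM. This sum was 3126, 4707 and 3106 FPKM in low altitude libraries 1, 2 and 3, against 2751 and 6874 FPKM in high altitude libraries 2 and 3, so 2 high altitude libraries lay above all low altitude ones. All 4 slow fibre genes had fitted log2 differences below 0, low minus high altitude, with a median of −0.73, and none passed in limma (1 had an unadjusted p under 0.05, MYL3). The part of fibre type in the differences below was not tested. The summed levels of all 10 marker lists, which also covered adipocytes, endothelium, smooth muscle, macrophages, lymphocytes and erythroid cells, overlapped between the groups. A sum mostly follows its most abundant genes. Of single markers, KDR and CD3D had low altitude below high in every library, and NEB, TAGLN and CD14 had it above. Groups did not overlap in 16.1% of all tested genes. All 4 tested lymphocyte markers had differences below 0, and none passed in limma. Of the 46 markers with a row, 2 were listed at 0 in some library. In whole muscle, fewer cells of a type and less RNA per cell cannot be told apart.

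ARRDC3 was the most abundant of the 3 genes at low altitude and had the largest difference between the groups. It was at 40.5, 29.2 and 40.4 FPKM in low altitude libraries 1, 2 and 3, against 6.86, 4.84 and 12.0 FPKM in high altitude libraries 1, 2 and 3. The groups did not overlap, and the lowest low altitude library was 2.44-fold above the highest high altitude library. The means were 36.7 ± 6.51 FPKM at low and 7.89 ± 3.67 FPKM at high altitude (SD, n = 3 each), a 4.65-fold ratio. The fitted log2 difference, low minus high altitude on the log2(FPKM + 1) scale, was 2.15 (SE 0.30). Without high altitude library 1 it was 2.10.

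ARRDC4, the member that shares MondoA control with TXNIP, was the least abundant. It was at 6.32, 10.7 and 10.8 FPKM in low altitude libraries 1, 2 and 3, against 1.77, 4.93 and 3.66 FPKM in high altitude libraries 1, 2 and 3. The groups did not overlap, but the gap was narrow, with the lowest low altitude library 1.28-fold above the highest high altitude library. The means were 9.29 ± 2.57 FPKM at low and 3.45 ± 1.59 FPKM at high altitude (SD, n = 3 each), a 2.69-fold ratio. The fitted log2 difference was 1.24 (SE 0.32). Without high altitude library 1, which had the lowest value, it was 0.93.

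ARRDC2, a close relative of ARRDC3, varied most between animals. It was at 24.5, 7.04 and 12.0 FPKM in low altitude libraries 1, 2 and 3, against 10.1, 2.04 and 6.78 FPKM in high altitude libraries 1, 2 and 3. The groups overlapped, since low altitude library 2 lay below high altitude library 1. The means were 14.5 ± 8.99 FPKM at low and 6.31 ± 4.05 FPKM at high altitude (SD, n = 3 each), a 2.30-fold ratio. The fitted log2 difference was 1.11 (SE 0.56). Leaving out high altitude library 2 gave 0.58, and leaving out low altitude library 1 gave 0.67. Leaving out high altitude library 1 or low altitude library 2 gave groups that did not overlap, with differences of 1.51 and 1.504.

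**Figure D1:**
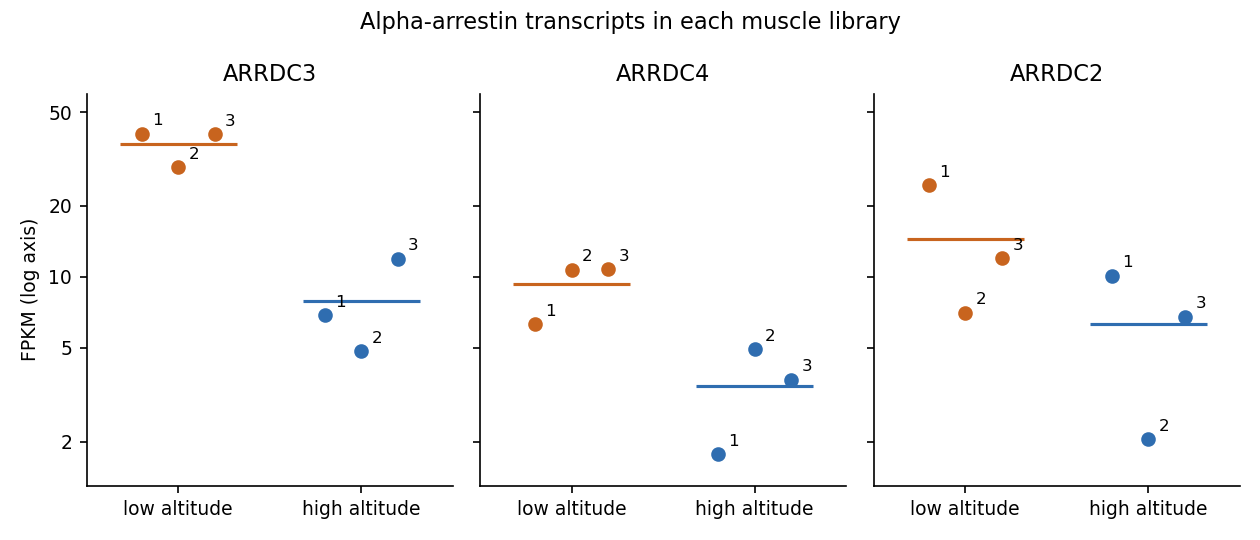
FPKM (log axis) of ARRDC3, ARRDC4 and ARRDC2 in each library, with low altitude on the left and high altitude on the right of each panel. Numbers mark the animals and lines the group means; the groups are apart for ARRDC3 and ARRDC4, while ARRDC2 overlaps, with 7.04 FPKM in low altitude library 2 and 10.1 FPKM in high altitude library 1.

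The groups therefore did not overlap, with low altitude above, in 2 of the 3 measured members. The same held in 11.3% of the 10005 genes tested, which reached 1 FPKM in 3 or more libraries. None of the members had low altitude below in every library, which held in 4.80% of the tested genes. The family was selected on this contrast, so nothing is read from these counts. The 3 members had fitted differences of 1.11 to 2.15, where the median over all tested genes was 0.041.

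Summed over the 3 genes, the level was 71.3, 47.0 and 63.2 FPKM in low altitude libraries 1, 2 and 3, against 18.7, 11.8 and 22.4 FPKM in high altitude libraries 1, 2 and 3. ARRDC3 made up 56.8 to 64.0% of this sum at low altitude and 36.6 to 53.4% at high altitude. At low altitude its level lay above both other members in every library, while ARRDC2 (7.04 to 24.5 FPKM) and ARRDC4 (6.32 to 10.8 FPKM) overlapped. At high altitude the ranges of all 3 overlapped, with ARRDC3 at 4.84 to 12.0, ARRDC2 at 2.04 to 10.1 and ARRDC4 at 1.77 to 4.93 FPKM. The most abundant member was then ARRDC2 in library 1, ARRDC4 by a small margin in library 2 (4.93 FPKM, against 4.84 FPKM for ARRDC3) and ARRDC3 in library 3. ARRDC2 alone made up 53.9% of the sum in high altitude library 1.

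**Figure D2:**
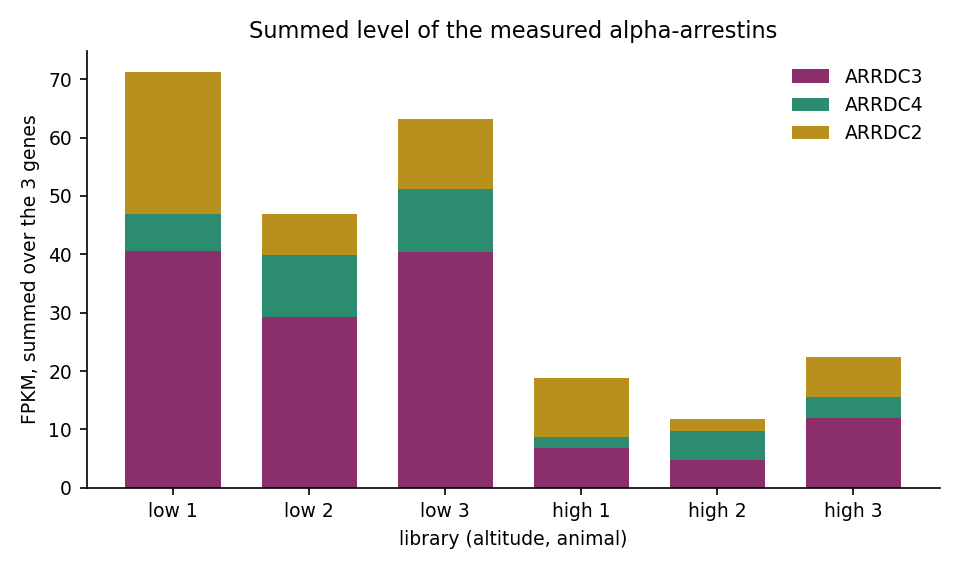
FPKM of ARRDC3, ARRDC4 and ARRDC2 stacked for each library, low altitude libraries on the left and high altitude libraries on the right. The sums run from 47.0 to 71.3 FPKM at low and from 11.8 to 22.4 FPKM at high altitude, and the ARRDC2 part is largest in library 1 of each group.

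The 3 members did not all vary in the same direction between animals of the same group. These deviations from the group mean of log2(FPKM + 1) use no difference between the groups. ARRDC2 deviated by 0.88, −0.79 and −0.10 in low altitude libraries 1, 2 and 3, and by 0.79, −1.07 and 0.28 in high altitude libraries 1, 2 and 3. It was thus highest in library 1 and lowest in library 2 of both groups. ARRDC4 deviated the other way in library 1 of both groups (−0.46 at low and −0.62 at high altitude) and in library 2 of both (0.23 and 0.48). ARRDC3 followed neither in full. It was lowest in library 2 of both groups (−0.31 at low and −0.53 at high altitude), like ARRDC2, and its highest value at high altitude was in library 3 (0.62). Nothing in the labels ties animals of the same number across the groups.

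The spread of these genes within a group was wide for this table. The pooled within-group SD of log2(FPKM + 1) was 0.90 for ARRDC2, larger than in 98.2% of the tested genes. It was 0.49 for ARRDC4 and 0.45 for ARRDC3, larger than in 91.0 and 89.3% of the tested genes. ARRDC2 differed 3.48-fold between the highest and the lowest low altitude library and 4.94-fold between those at high altitude. For ARRDC3 these ratios were 1.39 and 2.47, and for ARRDC4 1.71 and 2.79. By mean FPKM over the 6 libraries, ARRDC3, ARRDC2 and ARRDC4 lay above 84.6, 71.4 and 59.3% of the tested genes.

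**Figure D3:**
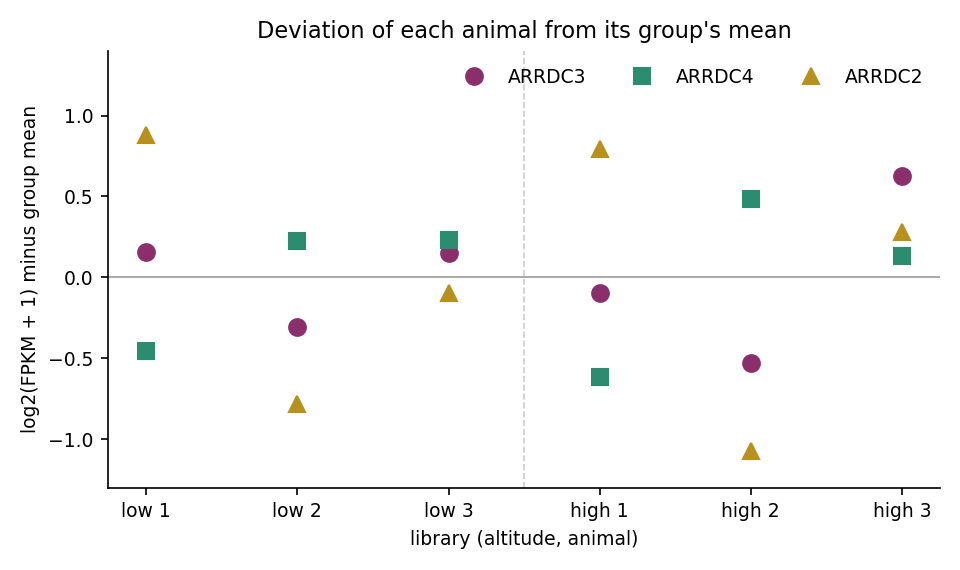
Deviation of each library from its own group's mean, in log2(FPKM + 1), for ARRDC3, ARRDC4 and ARRDC2, with low altitude libraries left of the dashed line and high altitude libraries right of it. ARRDC2 and ARRDC4 lie on opposite sides of 0 in library 1 and library 2 of both groups.

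The genes with a symbol whose profile over the 6 libraries was most like that of ARRDC3 were KLF9, FBXO32, SPIDR, KLF10 and GADD45B. Likeness was the root mean square difference between the log2(FPKM + 1) profiles, each centred on its own mean, and it includes the difference between the groups. It was 0.32 for KLF9, a zinc finger factor induced by glucocorticoids, and 0.33 for FBXO32, a ubiquitin ligase of muscle atrophy. It was 0.36 for SPIDR, a scaffold of DNA repair, 0.39 for KLF10, a zinc finger factor induced by TGF-beta, and 0.41 for the stress response gene GADD45B. KLF9 was at 32.9, 29.1 and 40.2 FPKM in low altitude libraries 1, 2 and 3, against 8.13, 8.84 and 14.7 FPKM in high altitude libraries 1, 2 and 3. FBXO32 was at 58.3, 25.7 and 74.1 FPKM at low altitude, against 9.90, 8.44 and 14.8 FPKM at high altitude. As for ARRDC3, library 2 was the lowest at low altitude and library 3 the highest at high altitude. At low altitude library 3 was the highest for both genes, while for ARRDC3 library 1 was, by a small margin (40.5 against 40.4 FPKM). At high altitude library 2 was the lowest for ARRDC3 and FBXO32, and library 1 for KLF9. These genes were picked for a profile like that of ARRDC3, so a similar order is partly built in. The other members were farther from ARRDC3 than these 5, with 0.76 for ARRDC4 and 0.78 for ARRDC2. Among all tested genes they still ranked 109 and 133 in likeness to ARRDC3. ARRDC4 and ARRDC2 differed from each other by 1.11. By likeness to ARRDC4, ARRDC2 ranked 9726, and by likeness to ARRDC2, ARRDC4 ranked 8616. Likeness includes the difference between the groups, on which the family was chosen, so nothing is read from these ranks.

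**Figure D4:**
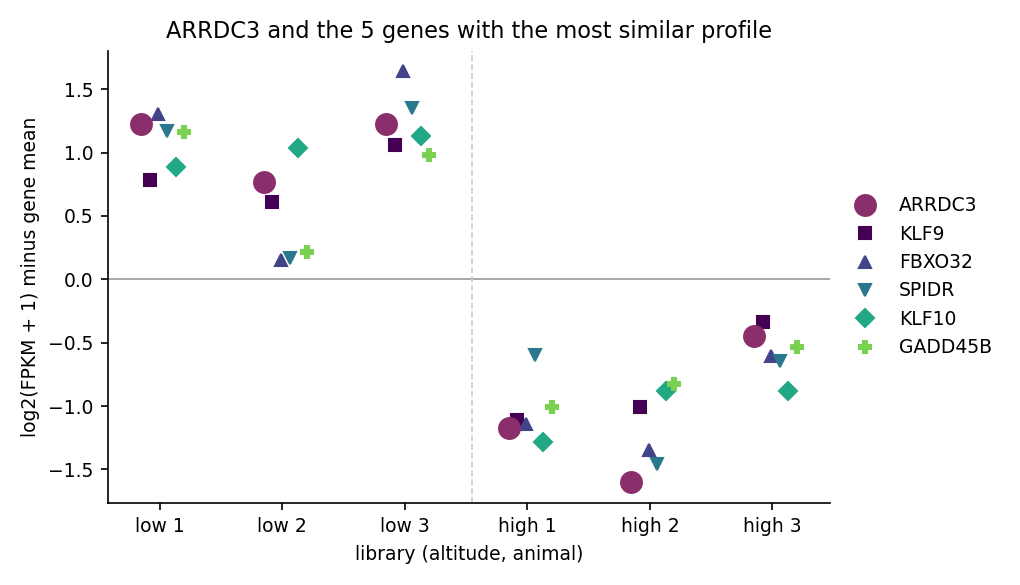
Level of ARRDC3 and of the 5 genes nearest to it in each library, as log2(FPKM + 1) minus the gene's own mean, with low altitude libraries left of the dashed line and high altitude libraries right of it. All 6 genes lie above 0 in the low altitude and below 0 in the high altitude libraries.

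Genes around the alpha-arrestins were read in 9 lists, which held 113 genes, of which 81 had a row and 68 were tested. The test was limma with Benjamini-Hochberg adjustment over all 10005 genes. Over those, 23 genes changed (0.230%), 16 of them higher in low altitude muscle and 7 lower. With the libraries rescaled to a common FPKM total the split was 26 higher and 6 lower. In the lists 1 gene passed, PER1. An unadjusted p under 0.05 was found in 9.42% of all tested genes, and groups that did not overlap in 16.1%, so that a count of 0 in a list of 4 to 8 genes is near this background.

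The NEDD4-family ligases, which bind the PPxY motif, were measured in part, since NEDD4, SMURF2, HECW1 and HECW2 had no row. Of 6 tested NEDD4-family ligases and adaptors none passed in limma, none had an unadjusted p under 0.05, and none had groups that did not overlap. WWP1, a ligase of the family, was at 58.6 ± 10.9 FPKM at low and 59.97 ± 20.9 FPKM at high altitude (SD, n = 3 each). NDFIP1, an adaptor that activates these ligases, was at 30.2 ± 2.22 and 32.6 ± 5.91 FPKM. The fitted log2 differences were −0.23 (SE 0.16) for its relative NDFIP2 and 0.10 (SE 0.17) for the ligase ITCH, and the list median was −0.0145. With 1 library left out they ranged over −0.37 to −0.14 for NDFIP2 and −0.023 to 0.22 for ITCH.

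The ESCRT genes, which bud vesicles and sort ubiquitinated cargo, also had 0 of 8 tested members past the threshold in limma, and 0 with an unadjusted p under 0.05. TSG101, PDCD6IP, HGS and CHMP4B had no row. There was no overlap between groups for 3 of the 8, with low altitude above in 2 (VPS28 and STAM2) and below in 1 (CHMP2A). Over all tested genes this held in 16.1%, and nothing is read from a count this small. VPS28, a subunit of the early complex, was at 42.8 ± 2.61 FPKM at low and 37.6 ± 3.46 FPKM at high altitude (SD, n = 3 each). CHMP2A, of the late complex, was at 25.7 ± 0.336 and 28.2 ± 2.55 FPKM. STAM2, which binds ubiquitinated cargo, had a fitted log2 difference of 0.29 (SE 0.15), and VPS37A one of −0.50 (SE 0.24). With 1 library left out these ranged over 0.18 to 0.38 and −0.62 to −0.30. The list median was 0.089.

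Among other genes with an arrestin fold, 0 of 6 tested members passed in limma. The 2 beta-arrestins, which desensitise receptors, had overlapping groups. ARRB1 was at 3.51, 4.55 and 5.37 FPKM at low altitude, against 3.55, 4.50 and 4.89 FPKM at high altitude, and ARRB2 at 6.0, 5.53 and 6.10 FPKM, against 4.97, 6.07 and 5.35 FPKM. Only VPS26B, a retromer subunit, had an unadjusted p under 0.05. It was at 8.21 ± 0.869 FPKM at low and 4.93 ± 1.05 FPKM at high altitude (log2 difference 0.64, SE 0.17, adjusted p = 0.306 in limma after Benjamini-Hochberg adjustment). Its paralog VPS26A was at 16.1 ± 1.67 and 13.8 ± 1.60 FPKM. The list median was 0.10. The beta-arrestins and the visual arrestin SAG were chosen for mention after their values were seen, and SAG was at or under 0.18 FPKM in every library.

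Downstream of the beta-adrenergic receptors, on which ARRDC3 is known to act, 0 of 8 tested genes of cAMP signalling passed in limma. The receptors themselves were not tested. ADRB1 was below the filter, at 0.08 to 0.29 FPKM at low and 0.18 to 0.42 FPKM at high altitude. PRKAR1A, a regulatory subunit of protein kinase A, was at 62.5 ± 2.10 FPKM at low and 54.3 ± 10.3 FPKM at high altitude (SD, n = 3 each), and the catalytic subunit PRKACA at 42.4 ± 5.55 and 43.0 ± 2.55 FPKM. The phosphodiesterase PDE4B, which breaks down cAMP, was the 1 gene with an unadjusted p under 0.05. It was at 11.5 ± 3.24 and 7.63 ± 1.36 FPKM (log2 difference 0.51, SE 0.22, limma with Benjamini-Hochberg adjusted p = 0.525). Its difference was 0.31 without low altitude library 1. The list median was 0.11.

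The glucose-sensing factors MLXIP and MLXIPL, read together with dimer partners and repressors of the wider MAX network, had differences in both directions. None of 7 tested members of this list passed in limma. An unadjusted p under 0.05 was found in 4, the repressors MXD3, MXI1 and MXD4 and the factor MLXIPL, where 9.42% of all tested genes had one. MLXIP, which encodes MondoA, was at 22.9, 18.3 and 24.9 FPKM in low altitude libraries 1, 2 and 3, against 11.1, 21.6 and 12.1 FPKM in high altitude libraries 1, 2 and 3. High altitude library 2 lay within the low altitude range, and the other 2 lay below it. Its dimer partner MLX was at 15.2 ± 0.420 FPKM at low and 16.5 ± 0.828 FPKM at high altitude (SD, n = 3 each). MLXIPL, which encodes the related factor ChREBP, had a difference below 0, with 0.40 to 1.01 FPKM at low and 0.94 to 2.59 FPKM at high altitude. MXD3 and MXI1, repressors of the MAX network, were at 2.92 ± 0.295 and 9.12 ± 1.03 FPKM at low, against 1.31 ± 0.571 and 6.12 ± 0.585 FPKM at high altitude. Their log2 differences were 0.79 (SE 0.19) and 0.50 (SE 0.14), with an adjusted p of 0.282 and 0.343 in limma after Benjamini-Hochberg adjustment. The list median was 0.44, against 0.041 over all tested genes.

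The glucose transporters and hexokinases were read because ARRDC4 and TXNIP lower glucose uptake. They had 0 of 5 tested members past the threshold in limma and 0 with an unadjusted p under 0.05. The tested genes were the hexokinases HK1, HK2 and HK3 and the transporters SLC2A11 and SLC2A12. SLC2A1, SLC2A3 and SLC2A5 had no row, so most transporters of the list were not followed. HK2, the muscle hexokinase, was at 5.04, 6.75 and 3.21 FPKM at low altitude, against 14.3, 6.69 and 6.75 FPKM at high altitude (log2 difference −0.74, SE 0.33). High altitude library 1 held the high value, and without it the difference was −0.41. The transporter SLC2A12 was at 7.20 ± 0.189 FPKM at low and 7.05 ± 2.0 FPKM at high altitude (SD, n = 3 each), and HK3 at 1.83 ± 1.14 and 2.81 ± 0.762 FPKM. The row that carries the symbol SLC2A4, the insulin-regulated transporter of muscle, was listed at 0.07 to 0.30 FPKM and was not tested. Whether the identifier or the estimate holds for that gene is doubtful, so no level of it is read from this row. The list median was −0.32.

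In the thioredoxin system, the partner side of TXNIP, 0 of 10 tested members passed in limma, and the median was −0.073. Thioredoxin itself (TXN), which TXNIP binds, had no row, and neither did GLRX and GLRX2. The count of members above 0 depended on the scaling, with 1 of 10 as deposited and 4 of 10 with libraries rescaled to a common total, where 57.7 and 67.4% of all tested genes lay above 0. PRDX2 and PRDX3, peroxidases that thioredoxin reduces, were at 154 ± 22.9 and 99.9 ± 21.7 FPKM at low, against 175 ± 19.2 and 104 ± 10.9 FPKM at high altitude (SD, n = 3 each). PRDX4, the peroxidase of the endoplasmic reticulum, was the 1 gene with an unadjusted p under 0.05, at 40.3 ± 0.962 and 51.7 ± 6.61 FPKM (log2 difference −0.35, SE 0.15, limma with Benjamini-Hochberg adjusted p = 0.522). PRDX1 had a log2 difference of −0.22 (SE 0.19), which ranged over −0.36 to −0.11 with 1 library left out. The inflammasome genes, which TXNIP is reported to activate through NLRP3, had 0 of 4 tested members past the threshold in limma, 0 with an unadjusted p under 0.05 and a median of −0.19. NLRP3 itself was below the filter and not tested, and PYCARD and IL1B had no row. NEK7, which binds NLRP3, was at 16.7 ± 3.21 FPKM at low and 17.1 ± 2.29 FPKM at high altitude. GSDMD and IL18 had log2 differences of −0.19 (SE 0.21) and −0.21 (SE 0.20), which ranged over −0.37 to −0.046 and −0.40 to −0.074 with 1 library left out.

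**Figure D5:**
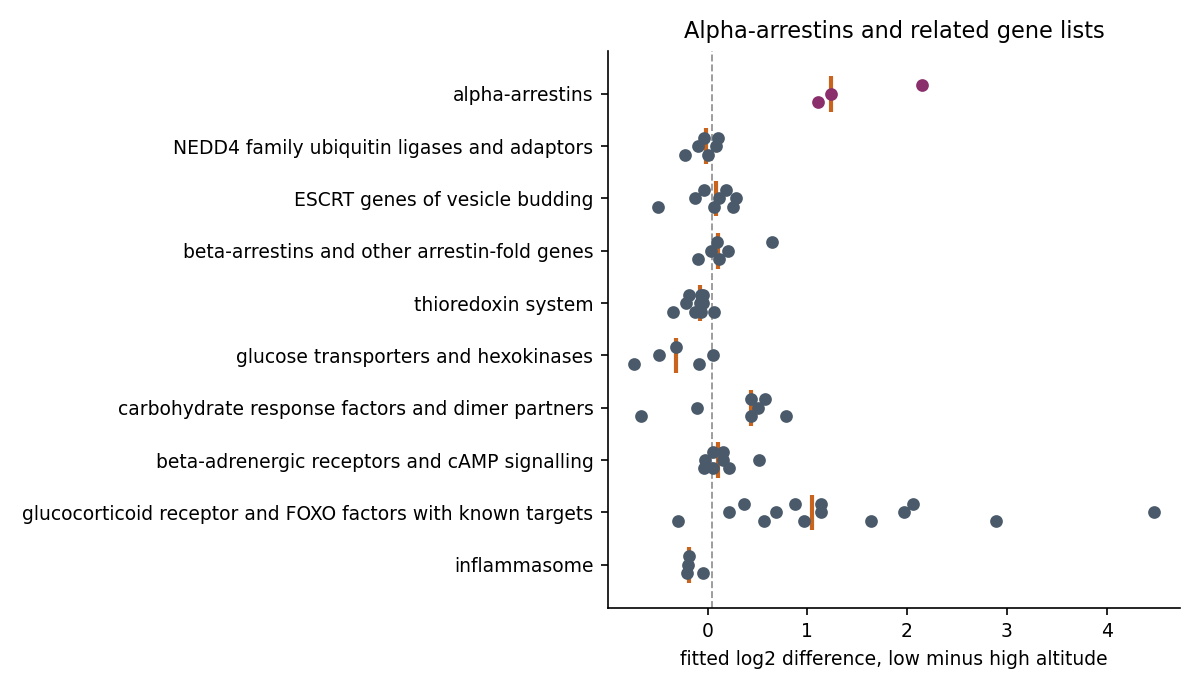
Fitted log2 difference, low minus high altitude, of each tested gene (points) in the alpha-arrestins and in 9 related lists, with list medians as vertical bars and the median of all tested genes (0.041) as a dashed line. The alpha-arrestins lie at 1.11 to 2.15, and the glucocorticoid and FOXO list, with a median of 1.05, has 13 of its 14 points above 0.

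The list of the glucocorticoid receptor, the FOXO factors and their known targets held KLF9 and FBXO32, the nearest to ARRDC3 among genes with a symbol, and had 13 of 14 tested members above 0. Only 14 of its 22 listed genes had a row, and TSC22D3, DDIT4 and KLF15 were among those without one. The groups did not overlap, with low altitude above, in 11 of the 14, where 11.3% of all tested genes did so. The list median was 1.05, against 0.041 over all tested genes. In limma 1 member passed and 11 had an unadjusted p under 0.05, where 9.42% of all tested genes had one. The list was chosen with earlier results of these data known, so nothing is read from these counts or the median. The nearness of KLF9 and FBXO32 to ARRDC3 also includes the difference between the groups. PER1, a clock gene that glucocorticoids induce, rose at low altitude. It was at 43.7, 51.0 and 67.9 FPKM, against 6.76, 4.94 and 7.45 FPKM at high altitude (log2 difference 2.89, SE 0.22, limma with Benjamini-Hochberg adjusted p = 0.00591). KLF9 had a log2 difference of 1.63 (SE 0.24) and did not pass (limma with Benjamini-Hochberg adjusted p = 0.0746). It passed with libraries rescaled to a common total and with array weights, and its adjusted p was 0.0396 to 0.267 over all settings of limma tried. FBXO32 had a difference of 2.06 (SE 0.39, limma with Benjamini-Hochberg adjusted p = 0.155).

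The most abundant members of that list were PDK4 and TRIM63. PDK4, the kinase that shuts off pyruvate dehydrogenase, was at 321, 130 and 527 FPKM in low altitude libraries 1, 2 and 3, against 22.9, 0.72 and 48.3 FPKM in high altitude libraries 1, 2 and 3. TRIM63, a ubiquitin ligase of muscle atrophy, was at 193, 133 and 406 FPKM at low altitude, against 31.6, 61.2 and 84.9 FPKM at high altitude. Neither passed (log2 differences 4.47 and 1.97, SE 1.19 and 0.48, adjusted p = 0.313 and 0.282 in limma after Benjamini-Hochberg adjustment). The receptor NR3C1 itself was at 19.4, 16.0 and 16.9 FPKM at low altitude, against 14.2, 13.5 and 17.1 FPKM at high altitude, and these overlapped. The groups also overlapped for FKBP5, a known target of the receptor. It was at 22.4, 10.7 and 33.8 FPKM at low altitude, against 26.9, 8.26 and 10.3 FPKM at high altitude. BCL6 was the 1 member below 0 (log2 difference −0.30, SE 0.28).

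Within the low altitude group, which uses no difference between the groups, 12 of these 14 genes were lowest in library 2, where 23.2% of all tested genes were. In 12 of the 14 the highest low altitude value was in library 3, against 27.2% of all tested genes. ARRDC3 and ARRDC2 were also lowest in low altitude library 2, whereas ARRDC4 was lowest in library 1. The highest low altitude value was in library 1 for ARRDC3 and ARRDC2, and in library 3 for ARRDC4. At high altitude 8 of the 14 were highest in library 3, as ARRDC3 was, against 50.4% of all tested genes. This reading of the order was chosen after the values were seen, and the genes of the list share known regulators.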

How the data were processed

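RNA of longissimus dorsi was measured in 6 libraries of 6 animals. They were strand-specific (dUTP method) and made from TRIzol-extracted RNA, per the labels' protocols. TopHat2 2.0.11 and Cufflinks 2.2.1 are named by the submitters' processing notes, with no role. Build and annotation are not given in the sources consulted, and coordinates are left out. The authors deposited FPKM values for 25322 Ensembl genes, not counts, so no count model was used and no counting interval is given. A gene name table gave 11804 of these a symbol.

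Values were analysed as log2(FPKM + 1). The 10005 genes that reached 1 FPKM in 3 or more of the 6 libraries entered limma 3.58.1 (R 4.3.3) with trend, low minus high altitude, two-sided, at a Benjamini-Hochberg adjusted p under 0.05. The steps were tested on simulated data. Named were the measured members, the 5 genes nearest to ARRDC3, and of each list the 2 most abundant genes, the 2 with the smallest unadjusted p and any that passed; others are named as examples chosen after their values were seen. The same rule for TXNIP could not be applied. The members and lists were chosen with earlier results of these data known. Alternatives tried were a pseudocount of 0.1 or 0.5, a filter at a mean FPKM of 5 or none, 3 scalings, no trend, array weights, a replicate block and leaving out each library.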

Additional observations from a re-analysis of the deposited data

How the results depend on the processing

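The differences of ARRDC3, ARRDC4 and ARRDC2 kept their direction, and moved by less than the spread between animals, in all 13 settings counted for them. Their log2 differences ran over 1.89 to 2.46, 0.93 to 1.48 and 0.58 to 1.54. The replicate block is among the 13, though it cannot move these differences in a balanced design. The spread was each gene's own pooled within-group SD, which was wide for ARRDC2 (0.90). The count of members whose groups do not overlap was 2 to 3 when each library was left out, and 2 under the 3 scalings. The count of changed genes, 23 as reported, was 38 with array weights, 10 after quantile normalization, 9 after median-of-ratios scaling and 6 without a filter on low values. It was 4 to 21 when each library was left out, with 6 without low altitude library 1, 4 without low altitude library 3, 11 without high altitude library 2 and 4 without high altitude library 3. The count of changed list genes, 1 as reported, was 2 with rescaling to a common total and 2 with array weights (KLF9 besides PER1). It was 1 to 2 when each library was left out, with FBXO32 added without low altitude library 2. PER1 passed in every setting. The log2 difference of ITCH was −0.023 without high altitude library 1, and −0.023 to 0.22 over the fits that left out 1 library. Apart from KLF9 and ITCH, the 18 list genes named for passing or for their unadjusted p kept their direction and their side of the threshold in every setting that gave them a value. For each of these changes the cause was not tested. With a replicate block on the animals' numbers, 19 genes changed. The labels give no pairing by number. Deviations of same-numbered animals over the tested genes correlated at −0.015, 0.095 and −0.141, and those of other-numbered animals at −0.151 to 0.161. With 3 animals per group these values cannot settle whether the animals were paired. FPKM holds no read totals, so depth limits the low values, such as ADRB1, to an unknown extent.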

Other observations

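The likeness measure used for ARRDC3 was also applied to the other measured members, a step chosen after the values were seen. ARRDC4 was most like NR4A3, an orphan nuclear receptor of the early response (root mean square difference 0.23), CHRDL2, an antagonist of bone morphogenetic proteins (0.24), and ITGA5, the integrin chain that binds fibronectin (0.25). KLF13, a zinc finger factor, and PI15 followed at 0.26 each. NR4A3 was at 2.35, 6.31 and 3.57 FPKM in low altitude libraries 1, 2 and 3, against 0.30, 1.68 and 0.78 FPKM in high altitude libraries 1, 2 and 3, lowest in library 1 and highest in library 2 of both groups. ITGA5 was at 4.74, 7.44 and 7.59 FPKM at low altitude, against 1.74, 4.74 and 4.25 FPKM at high altitude. ARRDC4 was itself lowest in library 1 of both groups, and highest in library 3 at low and library 2 at high altitude. Its nearest genes were picked for a like profile, so a similar order is partly built in.

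ARRDC2 was most like ART3, of the ADP-ribosyltransferase family (0.38), ZBTB16, a zinc finger factor induced by glucocorticoids (0.43), JUNB, a subunit of AP-1 (0.46), BTC, a ligand of the EGF receptor (0.46), and EGR1, an early response factor (0.50). ART3 was at 80.1, 53.4 and 83.8 FPKM in low altitude libraries 1, 2 and 3, against 66.4, 13.1 and 34.7 FPKM in high altitude libraries 1, 2 and 3. ZBTB16 was at 17.7, 11.9 and 19.1 FPKM at low altitude, against 10.96, 4.40 and 9.05 FPKM at high altitude. In both genes, as in ARRDC2, high altitude library 1 was the highest and library 2 the lowest of its group. Among the low altitude libraries, library 2 was the lowest for ART3, ZBTB16 and ARRDC2. The highest there was library 3 for ART3 and ZBTB16, but library 1 for ARRDC2. Both genes were picked for a profile like that of ARRDC2, so a similar order is partly built in.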
